A study of Mus musculus with 13 samples.

Results

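The miR-34 family was followed in B78H1 melanoma that grew in mice fed with or without curcumin. Its 6 arms on the array were chosen by name, namely the 5p and 3p arms of mmu-miR-34a, mmu-miR-34b and mmu-miR-34c, out of 1079 mouse miRNAs. The 4 arms of the related miR-449 miRNAs on the array were read beside them. All mice were male C57BL/6, and the tumors came from B78H1 cells placed under the skin of the flanks. B78H1 is an amelanotic melanoma line of B16 origin that lacks Tap-2 and MHC-I, so every tumor of either diet came from 1 cell line in an immunocompetent host. The 7 curcumin-treated tumors came from mice whose chow held 4% curcumin, and the 6 control tumors came from mice on standard chow of the same batch. The diets began 14 days before the cells were injected, and the tumors had grown for 28 days. The labels number the tumors within each diet without saying which mouse or flank each came from. The p-values therefore measure the spread between these tumors.

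The miR-34 miRNAs are known as direct transcriptional targets of the tumor suppressor p53. They hold back proliferation and survival by repressing mRNAs of cell cycle and anti-apoptotic genes such as Cdk6, Ccnd1, Met and Bcl2. Mir34a is a gene of its own, whereas Mir34b and Mir34c are cut from a shared primary transcript. miR-34a is found in many tissues, and miR-34b and miR-34c are best known from ciliated epithelia and germ cells. The 5p arms of all miR-34 miRNAs, mmu-miR-34c-5p included, and those of the miR-449 miRNAs are known to carry the same seed, the stretch near the 5′ end by which a miRNA pairs with its targets.

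The mature sequences show which arms share a seed and which probes could be confused. They were read 5′ to 3′ from RefSeq (GRCm38.p6), where 8 of the 10 arms matched by name. mmu-miR-34c-5p and mmu-miR-449b are named only and do not enter the counts of sequences. Capitals mark the seed, bases 2 to 8. The 5p arms and their miR-449 relatives come first and the 3p arms follow.

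mmu-miR-34a-5p: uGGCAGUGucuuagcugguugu

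mmu-miR-34b-5p: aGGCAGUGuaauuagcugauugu

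mmu-miR-449a-5p: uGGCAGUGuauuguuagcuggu

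mmu-miR-449c-5p: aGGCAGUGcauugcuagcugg

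mmu-miR-34a-3p: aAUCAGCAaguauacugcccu

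mmu-miR-34b-3p: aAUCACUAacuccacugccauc

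mmu-miR-34c-3p: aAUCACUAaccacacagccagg

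mmu-miR-34a-5p and mmu-miR-34b-5p hold 1 seed, which is also that of mmu-miR-449a-5p and mmu-miR-449c-5p. The whole sequences of mmu-miR-34a-5p and mmu-miR-34b-5p differ by 4 single-base changes or gaps. mmu-miR-34b-3p and mmu-miR-34c-3p share another seed that no further miRNA of the table holds, and 17 of their 22 bases are the same. A probe for either member of such a pair could pick up some of the other. The sequence of mmu-miR-34c-5p was not compared, so whether its probes and those of mmu-miR-34b-5p read each other's miRNA is not known here. mmu-miR-34a-3p has a seed of its own. Mir34a lies on the plus strand of chromosome 4, with its 5p arm at chr4:150068473-150068494 and its 3p arm at chr4:150068517-150068537. On the minus strand of chromosome 9, mmu-miR-34b-5p lies at chr9:51103610-51103632, mmu-miR-34b-3p at chr9:51103574-51103595 and mmu-miR-34c-3p at chr9:51103044-51103065. The Mir34b and Mir34c hairpins are 451 bases apart.

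The array of each tumor was 1 of 13 on 2 slides, and each miR-34 arm had 2 probes of 20 spots. Levels are given as log2 of the quantile normalized signal, which makes every array hold the same set of values, so that a change is always measured against the rest of the array. The summed signal of an array was 114095 to 281508 in curcumin-treated tumors and 150272 to 244666 in controls, and 272 to 370 and 313 to 412 miRNAs were detected. Curcumin tumor 5 stood apart. It had the lowest summed signal and the fewest detected miRNAs of all arrays, with the next lowest at 150272 and 313. Results are therefore also given without it. There were 3 curcumin-treated and 2 control tumors on slide 1, and 4 of either diet on slide 2. On both slides the controls lay in array row 1 and the curcumin-treated tumors in row 2, so position and diet cannot be told apart. The samples were bulk tumors, in which fewer cells of a type and less RNA per cell cannot be told apart.

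Both 5p arms of the chromosome 9 cluster were higher in the curcumin-treated tumors, by close to 4-fold, and their 3p arms were higher with them. mmu-miR-34a-5p went the other way, below the controls in 6 of 7 curcumin-treated tumors, and its difference did not pass the test over the whole array. In the limma fit with Benjamini-Hochberg adjustment over all 1079 miRNAs, 4 of the 6 arms passed the threshold of 0.05 as higher. Over the whole array 8.34% of the miRNAs passed as higher and 7.51% as lower, 15.8% in all. Of the 243 miRNAs detected on all arrays, which include the 3 5p arms, 20.2% passed as higher and 21.4% as lower, 41.6% in all.

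mmu-miR-34b-5p was detected on all 13 arrays. Its normalized level in the curcumin-treated tumors was 7.33 at the lowest, 9.12 at the median and 9.32 at the highest, on the log2 scale. In the controls it was 6.26, 6.81 and 7.37. Of the 7 curcumin-treated tumors 6 lay above every control, and curcumin tumor 5 lay just below the highest control, tumor 5 of that group. The mean level was 8.76 ± 0.72 (SD, n = 7) with curcumin and 6.77 ± 0.39 (SD, n = 6) in controls. The log2 fold change was 1.98 (SE 0.33, limma adjusted p = 0.00348), which is 3.96-fold. By the exact permutation test (two-sided) p was 0.00233. Among the 243 miRNAs detected on all arrays this rise was number 10 in size. Without curcumin tumor 5 it was 2.23 (limma adjusted p = 8.59e-05). It was 2.60 within slide 1 and 1.58 within slide 2, where the limma adjusted p was 0.0515 and 0.210. Without any normalization between arrays, where 4.54% of the array passed, it was 1.99 (limma adjusted p = 0.0549).

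mmu-miR-34c-5p, which is cut from the same transcript, was also detected on all 13 arrays. In curcumin-treated tumors its lowest, median and highest log2 level was 6.72, 8.35 and 8.66. In controls it was 5.69, 6.22 and 6.39. No curcumin-treated tumor overlapped with a control, which was so for 11.9% of the miRNAs detected on all arrays, 8.23% of them in the same direction. The means of 8.02 ± 0.72 (SD, n = 7) and 6.13 ± 0.25 (SD, n = 6) differed by 1.88 (SE 0.31, limma adjusted p = 0.00348), or 3.68-fold. The exact permutation p of 0.00117 is the smallest that splits of 13 tumors can give. This arm ranked 13 among the rises. Without curcumin tumor 5 the log2 fold change was 2.10 (limma adjusted p = 0.000104). Within slide 1 it was 2.40 and within slide 2 it was 1.53 (limma adjusted p = 0.0880 and 0.198), and without normalization it was 1.87 (limma adjusted p = 0.0559).

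mmu-miR-34a-5p, the most widely studied p53 target among miRNAs, was detected on all 13 arrays as well. Its log2 level in curcumin-treated tumors was 7.84 at the lowest, 8.11 at the median and 9.54 at the highest. In controls it was 8.75, 9.03 and 9.35. The 9.54 belonged to curcumin tumor 5, which lay above every control, while the other 6 curcumin-treated tumors lay below every control, at 8.53 or less. This order is that of the normalized levels. Before normalization the summed signal of this miRNA in curcumin tumor 5 was 385, inside the control range of 340 to 1009. In the other 6 it was 250 to 417, which overlapped with the controls. The mean level was 8.31 ± 0.59 (SD, n = 7) with curcumin and 9.05 ± 0.23 (SD, n = 6) in controls. The log2 fold change was -0.74 (SE 0.25), or 1.67-fold lower. The limma adjusted p over the array was 0.0663, which missed the threshold. The exact permutation test of this miRNA alone (two-sided) gave p = 0.0186. Without curcumin tumor 5 the log2 fold change was -0.95 (SE 0.13, limma adjusted p = 0.000632), and 7.88% of the array passed as lower in that fit. The log2 values the authors deposited also gave a limma adjusted p under the threshold (-0.73, adjusted p = 0.0402), and there 20.9% of the array passed. So did the limma test limited to miRNAs called detected throughout at least 1 diet group (-0.74, adjusted p = 0.0220). Of the 304 miRNAs in that test 164 passed, 96 of them as lower. Scaled to the 75th percentile of all miRNAs the difference was smaller (-0.44, limma adjusted p = 0.542). Within slide 1 the log2 fold change was -0.80 and within slide 2 it was -0.70.

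**Figure D1:**
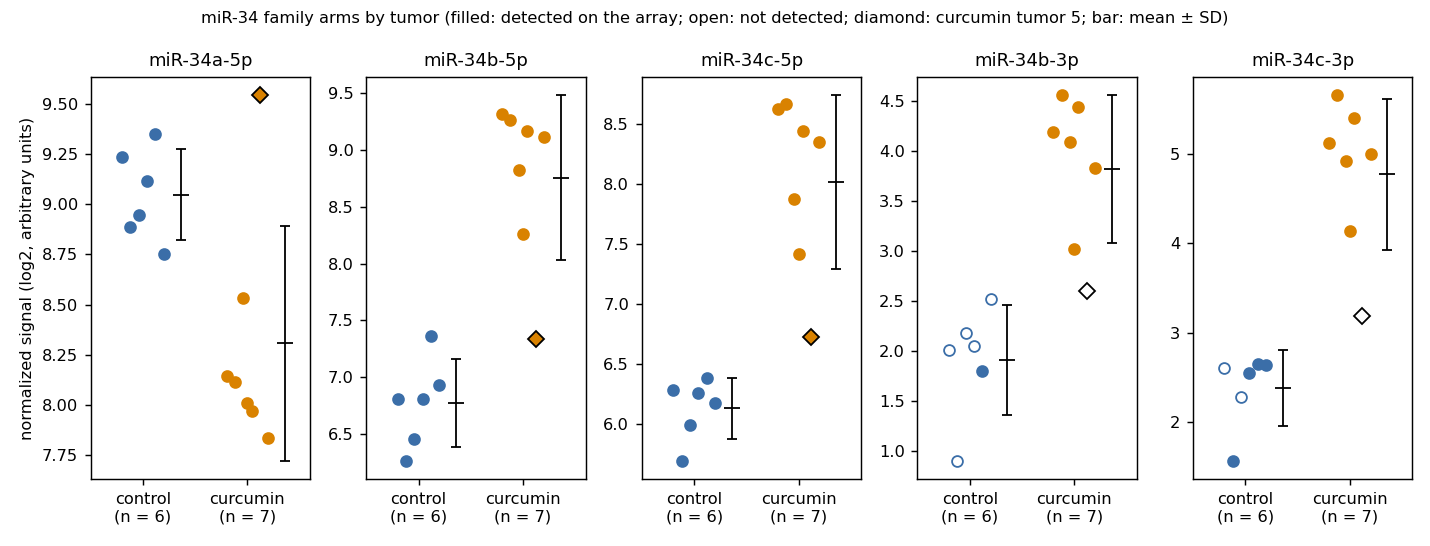
Normalized level (log2, y axis, with its own range in each panel) of the 5 miR-34 arms that were detected on at least 1 array, with 1 point per tumor. Filled points were detected, open points were not, the diamond is curcumin tumor 5 and the bars are mean ± SD. miR-34b and miR-34c arms lie higher in the curcumin-treated tumors, whereas miR-34a-5p lies lower in all of them but tumor 5, at 9.54.

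The 3p arms, the partner strands that are mostly discarded when a miRNA matures, were dim. mmu-miR-34c-3p was detected in 6 of 7 curcumin-treated tumors and 4 of 6 controls (exact Fisher test p = 0.559). Its log2 level was 3.18 at the lowest, 5.00 at the median and 5.65 at the highest with curcumin, and 1.56, 2.58 and 2.65 in controls. The groups did not overlap, as for 5.47% of all miRNAs on the array. The means of 4.77 ± 0.85 (SD, n = 7) and 2.38 ± 0.42 (SD, n = 6) differed by 2.39 (SE 0.38, limma adjusted p = 0.00348, exact permutation p = 0.00117), or 5.25-fold. Without curcumin tumor 5 they differed by 2.64. In only 1 of 6 controls did a probe of this arm have at least 50% of its spots well above background, so the fold is uncertain. With the log2 values the authors deposited the log2 fold change was 1.89. mmu-miR-34b-3p was detected in 6 of 7 curcumin-treated tumors and 1 of 6 controls (exact Fisher test p = 0.0291). Its levels were 2.61, 4.09 and 4.56 against 0.90, 2.03 and 2.52, again without overlap, as for 5.47% of the array. With the log2 values the authors deposited the groups overlapped. There curcumin tumors 5 (3.22) and 7 (3.33) lay below control tumor 6 (3.39). In the controls none of its probes had at least 50% of its spots well above background, so its level there is poorly measured. The measured means were 3.82 ± 0.74 (SD, n = 7) with curcumin and 1.91 ± 0.55 (SD, n = 6) in controls (limma adjusted p = 0.00581). They differed 3.75-fold, a size that is uncertain for this reason. With the log2 values the authors deposited the log2 fold change of mmu-miR-34b-3p was 1.20. In curcumin tumor 5 neither 3p arm was detected. Both sizes depended on the background correction. With normexp, which adds an offset of 50 to each spot, the log2 fold change was 0.47 for mmu-miR-34c-3p and 0.24 for mmu-miR-34b-3p, and the limma adjusted p stayed under 0.05 for each.

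mmu-miR-34a-3p, the partner strand of mmu-miR-34a-5p, was detected on no array. In 5 of 7 curcumin-treated tumors its signal was at or below 0 after background subtraction and was set to the floor, the smallest positive value (-7.03 on the log2 scale). Its limma log2 fold change of -4.98 (adjusted p = 0.0423) depends on that floor, and with a floor of 1 it was 0.20 (adjusted p = 1). No fold is given for it. mmu-miR-449a-5p, mmu-miR-449a-3p, mmu-miR-449b and mmu-miR-449c-5p were detected on no array either and lay at the floor in every tumor. On this array the shared 5p seed was thus measured through miR-34 arms.

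The 2 probes of each 5p arm gave similar differences. Scaled to the 75th percentile of the detected miRNAs, the log2 fold changes by probe were -0.67 and -0.65 for mmu-miR-34a-5p, 1.99 and 2.00 for mmu-miR-34b-5p, and 1.86 and 1.89 for mmu-miR-34c-5p. Opposite directions of the miR-34a and miR-34b/c 5p arms were thus seen with each probe.

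Whether the arms responded unequally to the diet was tested by their log2 difference within each array, for the 6 pairs among the 4 arms detected on at least 10 arrays. Each difference is read only as a change between the diets, since the levels of different miRNAs on an array are not comparable. mmu-miR-34b-5p minus mmu-miR-34a-5p was -2.62 to -1.82 in the controls. In curcumin-treated tumors other than tumor 5 it was 0.25 to 1.28, and in tumor 5 it was -2.21, inside the range of the controls. The same difference taken as mmu-miR-34a-5p minus mmu-miR-34b-5p was 2.28 ± 0.31 (SD, n = 6) in controls and -0.45 ± 1.25 (SD, n = 7) with curcumin. It changed by -2.73 between the diets (exact permutation p = 0.0035, adjusted over the 6 pairs 0.0042). For mmu-miR-34a-5p minus mmu-miR-34c-5p the change was -2.62 (exact permutation, adjusted p = 0.0035). Without curcumin tumor 5 these changes were -3.17 and -3.04 (exact permutation, adjusted p = 0.00325 for each).

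**Figure D2:**
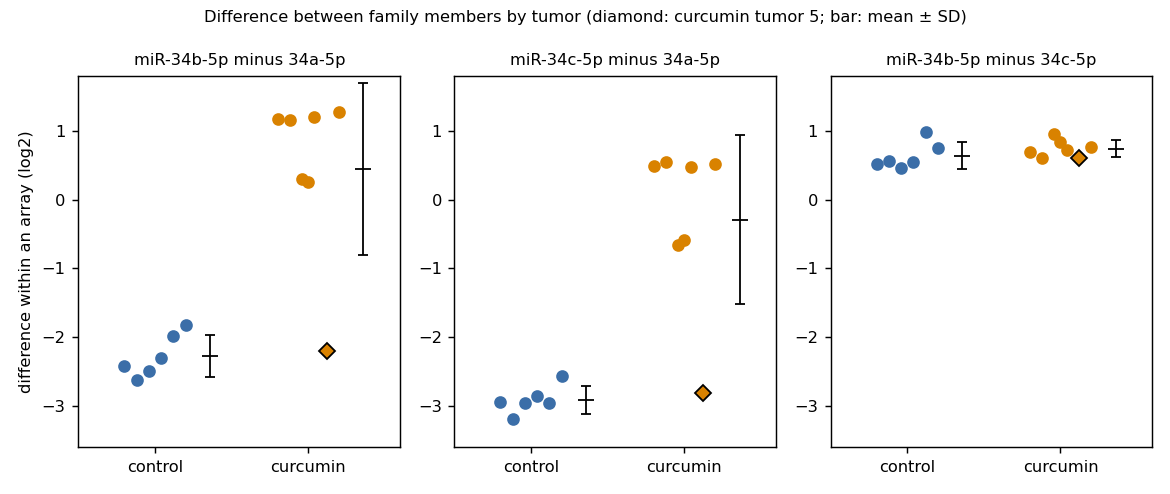
Difference of log2 levels within an array (y axis) for 3 pairs of 5p arms, with 1 point per tumor and mean ± SD beside each group. The differences against miR-34a-5p rise with curcumin in every tumor except tumor 5 (diamond, -2.21 for miR-34b-5p), and the difference between miR-34b-5p and miR-34c-5p stays between 0.46 and 0.98 in all 13 tumors.

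The cluster partners mmu-miR-34b-5p and mmu-miR-34c-5p kept nearly the same distance from each other. Their difference was 0.74 ± 0.12 (SD, n = 7) with curcumin and 0.64 ± 0.19 (SD, n = 6) in controls, a change of 0.10 (exact permutation, adjusted p = 0.261). Without control tumor 5 the change was 0.17 (exact permutation, adjusted p = 0.0278), so a small unequal change could not be told from none. Both 5p arms of the cluster rose less than mmu-miR-34c-3p. The change was -0.51 for mmu-miR-34c-5p and -0.41 for mmu-miR-34b-5p (exact permutation, adjusted p = 0.0035 for each). With the log2 values the authors deposited, to which a constant of 4.39 was added before the logarithm, these were -0.067 and 0.055 (exact permutation, adjusted p = 0.569 and 0.690), so the unequal rise of the dim arm rests on how low signals were treated.

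Across the tumors of 1 diet the cluster partners moved together. In curcumin-treated tumors Pearson's r between mmu-miR-34b-5p and mmu-miR-34c-5p was 0.985 (permutation p = 0.000794, adjusted over 8 relations 0.00635) and Spearman's rho was 0.964 (permutation, adjusted p = 0.0111). Without the 2 tumors farthest from the median r was 0.991. In controls r was 0.898 (permutation, adjusted p = 0.0444) and rho was 0.812 (permutation, adjusted p = 0.0978), with r = 0.812 without the 2 farthest. For mmu-miR-34a-5p no relation passed the adjustment. Its r with mmu-miR-34b-5p was -0.821 (permutation, adjusted p = 0.125; rho -0.286, adjusted p = 0.556) with curcumin and turned to 0.194 without the 2 farthest tumors, and in controls it was 0.592 (permutation, adjusted p = 0.222; rho 0.406, adjusted p = 0.556). Its r with mmu-miR-34c-5p was -0.777 with curcumin and 0.650 in controls (permutation, adjusted p = 0.125 and 0.184; rho -0.321 and 0.829, adjusted p = 0.556 and 0.0978), and 0.261 and 0.926 without the 2 farthest. Between mmu-miR-34c-5p and mmu-miR-34c-3p r was 0.965 and 0.954 (permutation, adjusted p = 0.0111 and 0.0556; rho 0.964 and 0.829, adjusted p = 0.0111 and 0.0978). It fell to 0.698 and 0.242 without the 2 farthest, so this relation rests largely on those tumors. No slide held more than 4 tumors of a diet, too few for a correlation within a slide.

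The miRNAs whose levels over the 13 arrays were most like those of the arms were sought among the other 240 detected on all arrays. These likenesses are descriptions, and they hold the diet difference itself. For mmu-miR-34b-5p they were mmu-miR-322-5p (r = 0.971), mmu-miR-450a-5p (r = 0.963) and mmu-miR-152-3p (r = 0.963). For mmu-miR-34c-5p they were mmu-miR-183-5p (r = 0.977), mmu-miR-23b-3p (r = 0.976) and mmu-miR-450a-5p (r = 0.975), and for mmu-miR-34c-3p they were mmu-miR-183-5p, mmu-miR-450a-5p and mmu-miR-322-5p (r = 0.971, 0.970 and 0.966). mmu-miR-34a-5p had other neighbors, mmu-miR-135a-1-3p (r = 0.913), mmu-miR-1224-5p (r = 0.905) and mmu-miR-3960 (r = 0.883). All 3 neighbors of mmu-miR-34a-5p were lower with curcumin and all of the cluster arms' neighbors were higher (limma adjusted p of 0.0483 or less). With the diet means subtracted, r with mmu-miR-34c-5p was still 0.948 for mmu-miR-183-5p, 0.906 for mmu-miR-23b-3p and 0.921 for mmu-miR-450a-5p. For the neighbors of mmu-miR-34b-5p it was 0.873 to 0.878. These r were taken over both diets together, with curcumin tumor 5, for miRNAs picked by their r on the same arrays. They therefore do not test whether miRNAs outside the cluster moved with its arms within a diet.

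**Figure D3:**
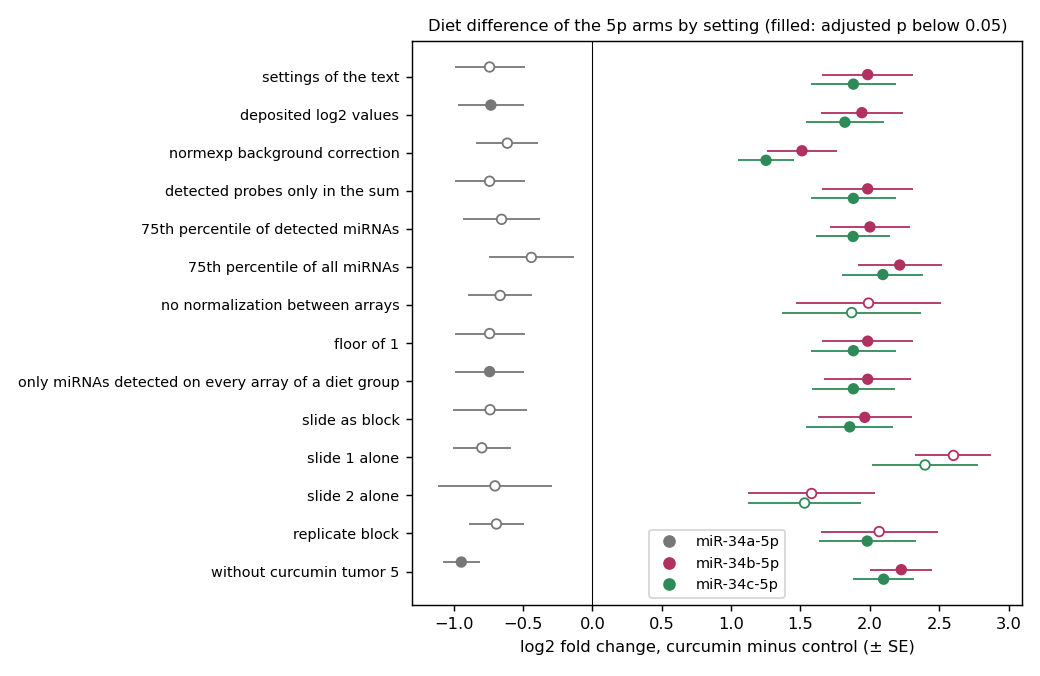
Log2 fold change of the 5p arms (x axis, curcumin minus control, ± SE) under each processing setting (y axis), filled where the limma adjusted p was below 0.05. The miR-34b-5p and miR-34c-5p points lie between 1.25 and 2.60 and every miR-34a-5p point lies below 0, filled in 3 settings, including the one without curcumin tumor 5 at -0.95.

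Other miRNAs with known links to p53 were counted by their role, 29 in all, of which 19 were detected on all arrays. In the limma fit 5 rose, 6 fell and 18 did not pass. All 11 that passed were among the 19 detected on all arrays, where 41.6% of the miRNAs passed (15.8% of the whole array). The median log2 fold change of the 19 was -0.17, beside -0.09 for all 243 miRNAs detected on all arrays. Without curcumin tumor 5, 13 of the 29 passed, beside 17.1% of the whole array in that fit. Without normalization between arrays 6 did, beside 4.54% of the whole array.

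Of the 17 miRNAs that p53 induces or helps to process, 4 rose, none fell, and 6 were detected on no array. The 4 were among 9 detected on all arrays, where 20.2% of the miRNAs rose. The 6 included all 5 members of the miR-200 family. Those that rose were mmu-miR-22-3p and the 3 miR-29 miRNAs, known to repress collagens and other matrix genes. mmu-miR-22-3p was 10.44 ± 0.52 (SD, n = 7) with curcumin and 8.53 ± 0.62 (SD, n = 6) in controls on the log2 scale, which differ by 1.91 (SE 0.31, limma adjusted p = 0.00348). mmu-miR-29b-3p rose by 1.64 (SE 0.28, limma adjusted p = 0.0038). mmu-miR-15a-5p, mmu-miR-16-5p, mmu-miR-107-3p, mmu-miR-143-3p and mmu-miR-145-5p, also detected on all arrays, lay between -0.23 and 0.27 and did not pass.

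Among 6 miRNAs that target p53 itself, mmu-miR-125b-5p rose by 1.90 (SE 0.26, limma adjusted p = 0.00179) and mmu-miR-25-3p fell by 0.67 (SE 0.17, limma adjusted p = 0.025). Of the 6 miRNAs of the miR-17-92 cluster, which p53 is known to lower and which drive proliferation, 5 fell and none rose. All 6 were detected on all arrays, where 21.4% of the miRNAs fell. The log2 fold change was -1.46 for mmu-miR-18a-5p, -1.13 for mmu-miR-20a-5p and -1.01 for mmu-miR-19b-3p (limma adjusted p = 0.005, 0.0196 and 0.00655). The sixth, mmu-miR-17-5p, had a log2 fold change of -0.79 (limma adjusted p = 0.102). Scaled to the 75th percentile of all miRNAs, 1 of these 6 passed as lower, as did 32 of 1079 over the array.

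**Figure D4:**
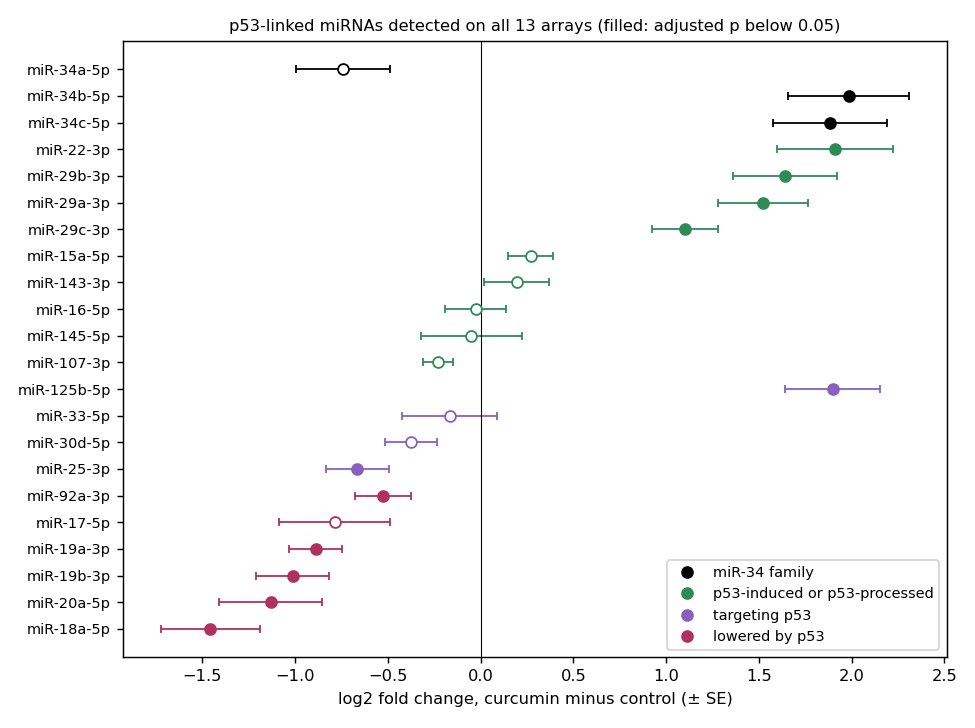
Log2 fold change (x axis, curcumin minus control, ± SE) of the p53-linked miRNAs detected on all 13 arrays (y axis), colored by role and filled where the limma adjusted p was below 0.05. miR-34b-5p and miR-34c-5p lie near miR-22-3p and miR-125b-5p at the high end, and miR-18a-5p at -1.46 is the lowest.

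Some miRNAs known as markers of cell types differed between the diets too. Over the array 8.34% of the miRNAs rose and 7.51% fell (20.2% and 21.4% of the miRNAs detected on all arrays). Of 7 epithelial miRNAs 1 rose, mmu-miR-205-5p, and 5, all of them miR-200 miRNAs, were detected on no array. The summed normalized signal of the 7 was 218 to 1739 with curcumin and 3.28 to 165 in controls. With curcumin this sum was mostly mmu-miR-205-5p, whose mean log2 level was 9.80, against 2.57 for mmu-miR-203-3p. All 5 hematopoietic miRNAs rose (599 to 1778 against 313 to 526), as did 2 of 3 fibroblast miRNAs (419 to 982 against 73.5 to 311). Neither of the endothelial pair passed (254 to 820 against 137 to 281), and 1 of 4 skeletal muscle miRNAs rose (29.1 to 962 against 23.3 to 607). The melanocytic mmu-miR-211-5p fell and was detected in 4 of 7 curcumin-treated tumors and in all 6 controls, with a sum for the 2 melanocytic miRNAs of 4.19 to 624 against 308 to 847. In curcumin tumor 5 the normalized level of mmu-miR-34a-5p was highest and those of the cluster arms were lowest of the group. Its epithelial, hematopoietic and fibroblast sums were the lowest of the curcumin-treated tumors, and its melanocytic and skeletal muscle sums were the highest. Its endothelial sum of 321 was not at either end of the group. The part of these cells in the miR-34 differences was not tested.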

How the data were processed

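RNA of 7 curcumin-treated and 6 control tumors was measured on 1-color miRNA arrays, 1 array per tumor. The authors extracted the deposited intensity values with Feature Extraction 10.10.1.1 (background subtracted, not normalized between arrays). The authors' deposited log2 values were met to within 1e-04 (100% of values) by summing the detected probes of detected miRNAs and every probe of the others, quantile normalizing, adding 4.39 and taking log2; they served as an alternative. Here each miRNA's gTotalProbeSignal intensities, detected or not, were summed over its probes, quantile normalized and put on a log2 scale, with 51.4% of values at or below 0 set to the floor. The diets were compared with limma 3.58.1 (R 4.3.3, two-sided, Benjamini-Hochberg over 1079 miRNAs, threshold 0.05), tested on simulated data. Single arms and pairs were compared with exact permutation tests over 1716 splits, two-sided by doubling the smaller tail. Detection calls are those of the files. The normexp alternative used median spot signals, where the plan had named mean signals. The number of arrays limits the precision. No pair of arrays (0 of 78) held equal values.

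All miR-34 and miR-449 arms are named. Of the p53-linked list at most 3 rises and 3 falls are named with their tests, the largest among those past the threshold and detected on all arrays, and other members are named to give the makeup of a count. mmu-miR-25-3p and mmu-miR-17-5p, which fall outside this rule, were named with their tests after their values were seen. The 3 most similar miRNAs are named for each arm detected on at least 10 arrays. The members, lists and markers were chosen with earlier results of these data known. Alternatives were the deposited values, the background correction, the probes summed, other scalings, the floor, a filter on detection, the methods' t-test, the slide and replicate number as blocks, each slide alone and each array left out in turn.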

Additional observations from a re-analysis of the deposited data

Results flagged for a closer look

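The level of mmu-miR-34a-5p in curcumin tumor 5 (9.54 on the log2 scale) lay far from the next highest curcumin-treated tumor (8.53), and the gap was 0.592 of the range of the group, above the limit of 0.568 for 7 samples. Before normalization its signal for this miRNA was 385, below the 417 of curcumin tumor 2, so it was not the highest of the group there. This array also had the lowest summed signal (114095) and 19.0% of its spots well above background, where the others had 22.0% to 29.6%. The part of these in the value was not tested. The level of mmu-miR-34c-3p in control tumor 2 (1.56) lay below the next lowest control (2.28) by 0.661 of the range, above the limit of 0.625 for 6 samples. Chance gives such a gap in about 1 of 20 groups, and 10 groups were examined.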

How the results depend on the processing

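Each 5p arm kept its direction under all settings. For mmu-miR-34a-5p the adjusted p passed only with the deposited values (-0.73), among miRNAs detected throughout a diet group (-0.74) and without curcumin tumor 5; leaving out each array gave -0.95 to -0.67. The risen arms missed the threshold without normalization (mmu-miR-34b-5p 1.99, mmu-miR-34c-5p 1.87, mmu-miR-34b-3p 1.63, mmu-miR-34c-3p 2.19), within slide 1 (2.60, 2.40, 2.82 and 3.15) and within slide 2 (1.58, 1.53, 1.33 and 1.90). Leaving out each array gave 1.88 to 2.23, 1.75 to 2.10, 1.73 to 2.08 and 2.24 to 2.64, all past the threshold. mmu-miR-34a-3p turned to 0.20 with a floor of 1 and missed the threshold with the deposited values (-0.28), normexp (-0.027), the 75th percentile of detected (-5.83) or all miRNAs (-5.82), no normalization (-6.07), unequal variances (-4.98), slide as block (-4.96), slide 1 (-6.44) and slide 2 (-4.06), and in 12 of 13 fits with an array left out (-7.48 to -4.50).

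Same-numbered tumors had correlated deviations of -0.302 to 0.198, and 0 of 6 were closest to their own number. This gave no sign that the numbers pair the tumors, but 6 numbers are too few to settle it. With the replicate number as a block mmu-miR-34b-5p was 2.07 (limma adjusted p = 0.0527), mmu-miR-34c-5p was 1.98 (limma adjusted p = 0.0402), mmu-miR-34a-3p was -4.68, and 67 miRNAs passed over the array, against 171 (90 higher), 1 of them p53-linked, against 11. It changed no other call of a miR-34 arm.

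Over the array 105 passed with the 75th percentile of all miRNAs (73 higher), 49 without normalization (10 higher), 34 on slide 1 and 3 on slide 2 (14 and 1 higher), and 102 to 184 with each array left out. Of the 226 miRNAs passing with the deposited values 103 were higher, as were 68 of 164 in the test of those detected throughout a diet group. Over the 243 miRNAs detected on all arrays the log2 fold change had a median of -0.09, and of -0.26 without normalization; mmu-miR-34a-5p differed from that median by -0.65 and -0.40. The 6 p53-linked miRNAs with the largest called changes (mmu-miR-22-3p, mmu-miR-125b-5p, mmu-miR-29b-3p, mmu-miR-18a-5p, mmu-miR-20a-5p and mmu-miR-19b-3p) kept their direction in all 27 alternatives each and missed the threshold in 2 to 4. mmu-miR-25-3p also kept its direction but missed the threshold in 8 of 27, and mmu-miR-17-5p passed it in 5. Of the p53-linked miRNAs 6 passed without normalization and 9 to 14 with each array left out. With the deposited values, mmu-miR-34b-5p minus mmu-miR-34c-3p turned to 0.055 and mmu-miR-34c-5p minus mmu-miR-34c-3p was -0.067 (not past the threshold). mmu-miR-34b-5p minus mmu-miR-34c-5p was 0.068 to 0.17 with each array left out. The causes were not tested. Signal near background limits the 3p arms.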
